A study of Mus musculus with 5 samples.

Results

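Early neutrophil progenitors with primary granule transcripts were followed in bone marrow of Fgd5CreERT2/+Rosa26Tomato/+ mice aged 20 weeks that had received no treatment. The cells had been sorted as Lin-CD45.2+c-kit+ (Lin-kit+), that is, without markers of mature blood cells and with the stem cell factor receptor on their surface, and profiled with the Chromium 3' V2 chemistry. A random tag on every captured transcript, the unique molecular identifier (UMI), lets PCR copies be collapsed, so each value counts distinct molecules. Both alleles were present in every library: the CreERT2 recombinase knocked into the Fgd5 gene together with a ZsGreen reporter, and the Cre-dependent Tomato reporter at Rosa26. Lin-kit+ cells came in 3 libraries, called a, b and c here, and 2 further libraries of Fgd5 reporter-positive cells completed the series, an assignment that rests on the cell numbers of the paper. A cell was counted as a member when Elane gave at least 0.5% of its UMIs, S100a8 and S100a9 together gave less than 1%, no more than 4 UMIs came from Ltf and none came from Irf8. This rule found 890 members among 11581 Lin-kit+ cells (12893 cells in the series). Library a held 102 members of 1339 cells (7.62%, exact 95% binomial interval 6.25 to 9.17). In library b they were 338 of 4095 cells (8.25%, 7.43 to 9.14), and in library c 450 of 6147 (7.32%, 6.68 to 8.0004). The mean share was 7.73% ± 0.477 (SD, n = 3 libraries), and the intervals cover counting error only.

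Neutrophils are made in the bone marrow through a series of stages that are named by their granules. The azurophil or primary granules are filled first, at the promyelocyte stage, with myeloperoxidase and the serine proteases neutrophil elastase, proteinase 3 and cathepsin G, which are stored on a proteoglycan scaffold. Secondary and tertiary granules with lactoferrin, cathelicidin and lipocalin follow at the myelocyte and metamyelocyte stages, while the transcription factor Irf8 marks the sister path to monocytes and dendritic cells.

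Members held 5910800 UMIs in all, 896883 in library a, 1918722 in library b and 3095195 in library c. Their median depth per cell was 8355, 5726.5 and 6756.5 UMIs, against 6390, 4309 and 5398 UMIs in the other Lin-kit+ cells. Scrublet called 123 of the 11581 cells doublets, 1 of them a member. The libraries shared 46 cell barcodes, 4 of which belonged to members, and no shared barcode was a member in both of its libraries. Over the 2121 genes with at least 300 UMIs in members, 45 were at least 2-fold higher in library a than in library c and 7 showed the reverse, of which 39 and 3 did so in the other cells too. Spi1, which encodes the myeloid factor PU.1, was such a gene: its level was 132, 45.3 and 24.6 CPM (UMIs of the gene per 1000000 UMIs) in the members of libraries a, b and c, and 127, 41.9 and 23.6 CPM in the other cells. All per-library values below are CPM in this order, each taken over the summed UMIs of a cell set in a library. The sources used here do not tie the libraries to mice, so p-values measure the spread between libraries only, which may be technical.

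The 5 markers that name the cell type were all present. Elane, Prtn3, Ctsg, Mpo and Ms4a3 together made up 4.41%, 4.41% and 4.62% of the UMIs of the median member in the 3 libraries. For the median of the other Lin-kit+ cells the shares were 1.04%, 0.853% and 0.998%. Sets of these cells that are compared below had higher shares, so the 5 genes were not particular to members. Cells high in S100a8 and S100a9 (calprotectin-high) were at 4.36%, 4.39% and 4.97%. Elane-high cells with an Irf8 UMI were at 2.46%, 2.51% and 2.63%. In 329 erythroid cells of the same libraries, taken for their Klf1 and Car1 UMIs as a reference for stray transcripts, the same 5 genes gave 0.00557%, 0.0135% and 0.0172%. Elane itself, which the rule used, ranged from 0.503% to 5.77% of a member's UMIs, with medians of 1.80%, 1.78% and 1.82%. Mpo, Prtn3 and Ctsg were found in all 890 members, and 7 members held no Ms4a3 UMI. Markers of other cell types were low. The 15 genes of an erythroid list, 3 of them at 0, summed to between 32.3 and 60.4 CPM in members, against 9151 to 10349 CPM in the erythroid cells. Over 9 megakaryocyte genes, 2 of them at 0, the sum lay between 11.1 and 46.2 CPM, and 14 lymphoid genes, 6 of them at 0, gave 37.9 to 59.1 CPM. Higher sums came from 10 basophil and mast cell genes (236 to 402 CPM, 2 at 0), from 7 eosinophil genes (154 to 287 CPM, 3 at 0) and from 19 monocyte and dendritic cell markers (549 to 697 CPM, 3 at 0). A few members that carried basophil or eosinophil transcripts at high level are described with the variation among members.

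The genes of the 5 markers lie on 4 chromosomes of the mouse genome (GRCm38.p6). Elane (chr10:79886247-79888215) and Prtn3 (chr10:79874476-79883174) are neighbours on the forward strand of chromosome 10, with Prss57, another granule serine protease gene (chr10:79781474-79790961), and the complement factor D gene Cfd (chr10:79890853-79892655) near by. Because these genes were high in the same cells, the bases before their first exons are shown for the gene that defines the members, for Mpo and for Ms4a3, which differed in the letters searched. The letters GAGGAA, the core bound by PU.1, were searched on both strands, as were TTNNGNAA for C/EBP factors and TGTGGT for RUNX factors. Capitals mark a match, and the sequences are from RefSeq.
Elane, chr10:79886062-79886246, forward strand: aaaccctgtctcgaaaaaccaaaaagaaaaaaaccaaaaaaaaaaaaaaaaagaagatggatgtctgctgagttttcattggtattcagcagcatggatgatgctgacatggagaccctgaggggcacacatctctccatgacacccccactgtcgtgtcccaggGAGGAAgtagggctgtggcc
Mpo, chr11:87793534-87793580, forward strand: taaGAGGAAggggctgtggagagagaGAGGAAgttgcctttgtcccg
Ms4a3, chr19:11640852-11641101, reverse strand: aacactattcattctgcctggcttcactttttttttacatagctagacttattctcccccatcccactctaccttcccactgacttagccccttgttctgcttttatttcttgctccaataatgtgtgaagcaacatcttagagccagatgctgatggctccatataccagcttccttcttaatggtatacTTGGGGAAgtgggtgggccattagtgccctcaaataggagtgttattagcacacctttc
In the Elane, Prtn3 and Ctsg windows the PU.1 letters occurred in 1 place each, and in the short Mpo window they occurred in 2 places. The Ms4a3 window held none and was the only one of the 5 with the C/EBP letters. Ctsg had the RUNX letters in 1 place. The Prtn3 window (chr10:79879417-79879613) lies inside the span given above for the gene. The Elane, Prtn3 and Mpo windows were cut to 185, 197 and 47 bases where an annotated exon begins. Over the full 250 bases the numbers of matches were the same for each of the 5 genes. Among all 32536 promoter windows of 250 bases, 23.4% held the PU.1 letters, 36.8% the C/EBP letters and 14.0% the RUNX letters. A match of letters is a description and not evidence of binding.

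To find what else set the members apart, UMIs were summed per library and compared with the sums of all 10691 other Lin-kit+ cells, with the library as a block (edgeR quasi-likelihood test, Benjamini-Hochberg adjusted p under 0.05). Because members were chosen for high Elane and against S100a8, S100a9, Ltf and Irf8, any gene that varies with these across cells differs by that choice. The 5 genes of the rule are therefore described and not tested. Of 10078 genes tested, 17.3% were higher in members and 18.7% were lower, with a median log2 fold change over all genes of -0.02.

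Granule proteases and their scaffold were higher in members, while most general lysosomal enzymes were not. Of 19 tested genes on a primary granule list, 9 were higher and 6 were lower. Elane was at 18423, 17969 and 18581 CPM in members and 7407, 7353 and 8239 CPM in the other cells. Mpo, the heme enzyme that makes hypochlorous acid, was at 8715, 8959.6 and 9486 CPM against 3671, 3753 and 4106 CPM, a log2 fold change of 1.22 ± 0.02 (SE; edgeR adjusted p = 1.36e-67). For the cathepsin G gene Ctsg the levels were 7151, 7329.9 and 7992 CPM and 2294, 2335 and 2612 CPM (1.62 ± 0.02; edgeR adjusted p = 3.92e-76). Proteinase 3 transcripts (Prtn3) stood at 7594, 7070.3 and 7150.4 CPM in members and 3598, 3361 and 3641 CPM in the rest (1.02 ± 0.02; edgeR adjusted p = 6.33e-60). In each of these genes the lowest library of the members lay above the highest library of the other cells. The proteoglycan core protein serglycin (Srgn), on which the proteases are packed, measured 3069.5, 3072 and 3296 CPM against 1331, 1343 and 1502 CPM (1.16 ± 0.02). Ms4a3, a membrane protein known from committed granulocyte and monocyte progenitors, followed with 2702, 2605 and 2757 CPM against 840.1, 863 and 942 CPM (1.58 ± 0.02). A further protease gene, Prss57, reached 503, 488 and 496 CPM against 152, 155 and 176 CPM (1.58 ± 0.04). Of 10 general lysosomal genes on the list 2 were higher, led by the sulfatase Arsb (1.06 ± 0.11), and 4 were lower.

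The granule membrane tetraspanin Cd63 was at 973, 1049.7 and 1158 CPM in members and 519.7, 578 and 688 CPM in the other cells (0.80 ± 0.03). That direction rested on the Irf8 criterion: with Irf8-positive cells kept among the members the log2 fold change was -0.84. Lysozyme (Lyz2) went the other way, with 151, 219 and 233 CPM in members and 2544, 2836 and 3165 CPM elsewhere (-3.80 ± 0.03; edgeR adjusted p = 2.56e-85). Also lower was Ctsc, the dipeptidyl peptidase that activates the granule proteases, at 26.8, 40.1 and 61.1 CPM against 96.2, 96.0 and 107 CPM (-1.09 ± 0.09), and it was higher (1.33) when Irf8-positive cells were kept. Its members' libraries did not overlap those of the other cells, but ranged more widely.

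**Figure D1:**
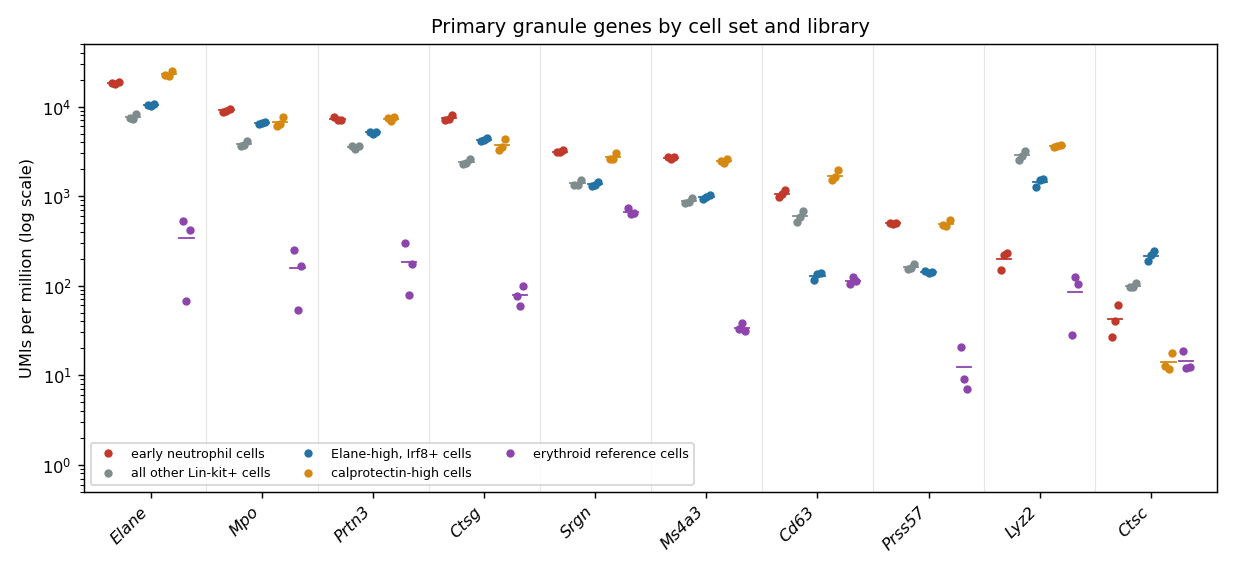
Levels of 10 primary granule genes in CPM on a log axis, for members, all other Lin-kit+ cells, Elane-high cells with an Irf8 UMI, calprotectin-high cells and erythroid reference cells; each dot is a library and each line the mean of 3. Members stand above the other Lin-kit+ cells in every gene but Lyz2 and Ctsc, and of the genes higher in members than in Irf8-positive cells Cd63 is the furthest apart.

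Genes of a protease inhibitor list, not all of which act on the granule proteases, did not move as a group: of 9 tested, 3 were higher and 5 lower. Among the lower genes Stfa1 had 0 UMIs in members and Serpinb9 had 5. Both passed the filter on low counts only through the other cells and could only be called lower. The granule protease inhibitor Serpinb1a was at 669, 670.2 and 804 CPM in members and 572, 664 and 749 CPM in the other cells (0.08 ± 0.03). Slpi differed by -0.47 ± 0.04. Cst7, which encodes the cathepsin C inhibitor cystatin F, was at 618, 597 and 590.3 CPM in members and 228, 212 and 223 CPM in the other cells (1.43 ± 0.04). Serpine2, an inhibitor of extracellular serine proteases, differed by 1.84 ± 0.10 and cystatin C (Cst3) by -1.08 ± 0.03.

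The machinery of protein export was higher in most of its genes. In a list of 46 genes for entry into the endoplasmic reticulum, folding and vesicle transport, 39 were higher in members and none was lower, with a median log2 fold change of 0.61. The list summed to 18839, 19239 and 19384 CPM in members and 12218, 12006 and 12176 CPM in the other cells, so the groups did not overlap. Calreticulin (Calr), a calcium-binding chaperone needed for folding of myeloperoxidase, was at 2354, 2085 and 2169 CPM against 1147, 1033 and 1063 CPM (1.01 ± 0.02). For Fkbp11, a prolyl isomerase of secretory cells, the levels were 193, 169 and 168 CPM and 39.1, 34.3 and 35.9 CPM (2.25 ± 0.07; edgeR adjusted p = 6e-46). The chaperone cofactor Sdf2l1 stood at 823, 841 and 599 CPM against 409, 379 and 275 CPM (1.09 ± 0.03), with library c low in both groups. The chaperone BiP (Hspa5) differed by 0.77 ± 0.03 and the stress-induced factor Manf by 0.90 ± 0.03.

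Ribosome biogenesis and heme synthesis differed less. Of 23 ribosome biogenesis genes, 16 were higher and none lower, at a median log2 fold change of 0.21. The H/ACA particle protein Nop10 was at 1197, 1203 and 1308 CPM against 743, 755 and 794 CPM (0.68 ± 0.03). Of 14 heme synthesis genes, 2 were higher and 4 lower. One that was higher was Alas1, the rate-limiting enzyme outside the erythroid lineage, at 404, 379 and 359 CPM in members against 148, 156 and 153 CPM (1.27 ± 0.05). In the glycolysis list 11 of 24 genes were higher and 4 lower, and in a list of lysosomal trafficking and glycan genes 6 of 26 were higher and 4 lower. Of the lower genes in these 2 lists, Aldoc, Igf2r and Ext1 had 2, 4 and 6 UMIs in members. They passed the filter on low counts only through the other cells.

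Among myeloid transcription factors, Gfi1, Myb and Cebpa were higher in members. Of 22 tested, 5 were higher and 9 lower, the latter including the immediate early genes Egr1, Jun, Junb and Fos (-0.98 to -2.91). Among the lower genes Egr1 had 6 UMIs in members and Mycn had 0. Both passed the filter on low counts only through the other cells and could only be called lower. Gfi1, a repressor required for neutrophil formation, was low in absolute terms, at 29.0, 25.02 and 28.4 CPM in members and 5.16, 5.43 and 5.73 CPM in the other cells (2.29 ± 0.17; edgeR adjusted p = 4.47e-21). The progenitor factor Myb was at 245, 197 and 188 CPM against 88.6, 87.9 and 82.8 CPM (1.22 ± 0.06; edgeR adjusted p = 5.78e-32). Cebpa, needed for entry into the granulocyte and monocyte path, measured 21.2, 20.3 and 18.1 CPM and 12.7, 11.6 and 8.40 CPM (0.91 ± 0.16). The groups did not overlap in any of the 3 genes. Cebpe, which drives the later steps of granule maturation, was at 341, 289 and 331 CPM in members and 242, 259 and 290.0 CPM in the other cells, where the highest library of the others exceeded the lowest of the members. Its log2 fold change was 0.22 ± 0.05 (edgeR adjusted p = 3.43e-05), which lost the call without the library block and turned to -1.44 when Irf8-positive cells were kept. Spi1 differed by 0.06 ± 0.09 and did not pass the test (edgeR adjusted p = 0.677).

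Genes of later granules were low in members. In the secondary and tertiary granule list 16 of 16 tested genes were lower, with a median log2 fold change of -2.81. The rule had removed cells high in S100a8 and S100a9, and its Ltf limit removed no further cell. Mmp8 and Cd177, with 2 UMIs each in members, passed the filter on low counts only through the other cells. S100a8 itself, the calprotectin subunit used by the rule, was at 2198, 1939 and 1703 CPM in members and 28930.0, 35325 and 35526 CPM in the others. The cathelicidin gene Camp was at 45.7, 74.5 and 76.9 CPM in members, below the mean of 424 CPM in the erythroid reference cells, and at 9224, 10916 and 11256 CPM in the other cells (-7.27 ± 0.04). Every cell was then thinned to 2000 UMIs. A Camp UMI was still held by 14.6% of members (exact 95% interval 12.3 to 17.1) and 14.5% of erythroid cells (10.8 to 18.8). Camp was thus found about as often in members as in these cells, and whether its UMIs were stray transcripts was not tested. Before thinning the median depth was 6301.5 UMIs in members and 6212 in erythroid cells. Other genes of the list were clearly present. The haptoglobin gene Hp differed by -0.40 ± 0.04, the peptidoglycan recognition protein Pglyrp1 was at 463, 462 and 423 CPM against 697, 762 and 799 CPM (-0.81 ± 0.04), and the whey acidic protein gene Wfdc21 at 400.3, 396 and 339.9 CPM against 836, 1001 and 964 CPM (-1.38 ± 0.04). Of 6 NADPH oxidase subunits 5 were lower. Cybb, the catalytic subunit, was at 24.5, 16.7 and 17.8 CPM in members against 104, 109 and 111 CPM (-2.58 ± 0.11; edgeR adjusted p = 3.04e-36).

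Genes of the other blood lineages had lower sums in members than in the other cells. Many of them passed the filter on low counts only through the other cells and could only be called lower, so their levels are described and calls are not counted. The erythroid list summed to 32.3, 51.6 and 60.4 CPM in members and 657, 726 and 842 CPM in the others, and the monocyte and dendritic cell markers to 549, 697 and 657 CPM and 3270.2, 3293 and 3116 CPM. For 19 stem and multipotent genes the sums were 279.9, 318 and 352 CPM and 977, 957 and 952 CPM. Megakaryocyte genes came to 181, 142 and 163 CPM in the others, lymphoid genes to 137, 154 and 133 CPM and basophil and mast cell genes to 1707, 1623 and 1819 CPM, each above the sums of members given earlier. Within the basophil and mast cell list Hdc, the histidine decarboxylase that makes histamine, was higher in members (115, 127 and 126 CPM against 46.9, 45.6 and 53.8 CPM, 1.2999 ± 0.07). In all, 78 genes with at least 100 UMIs in the other cells had no UMI in any member, Irf8 among them by the rule. With 3 UMIs over all members as the floor, the MHC class II gene H2-Eb1 was at least 131-fold lower in members, the phospholipase B-like gene Plbd1 at least 32.2-fold and the erythroid cholesterol transporter gene Tspo2 at least 25.5-fold. The same bound was 17.3-fold for Upb1, an enzyme of pyrimidine breakdown, 16.7-fold for the blood group protein gene Smim1, 13.7-fold for the sphingosine kinase Sphk1 and 13.3-fold for Batf3, a factor of conventional dendritic cells. For Rhd, a Rh blood group gene, it was 12.9-fold and for Atp1b2, a sodium pump subunit, 12.5-fold. The class II invariant chain Cd74 had 2 UMIs in members, both in library c, and was at 431, 416 and 398 CPM in the other cells.

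Of the surface receptors, 8 of 32 were higher in members and 15 lower. The interferon gamma receptor chain Ifngr1 differed by 1.04 ± 0.04 and the Fc receptor Fcgr3 by 1.07 ± 0.04. Kit, whose protein was used in the sort, was at 43.5, 38.0 and 34.6 CPM against 26.6, 29.4 and 26.4 CPM (0.42 ± 0.11; edgeR adjusted p = 0.0016, but 0.0613 by DESeq2), and turned to -0.23 when Irf8-positive cells were kept. The progenitor antigen Cd34 was at 60.2, 58.9 and 85.0 CPM in members and 129, 125 and 120.4 CPM in the other cells (-0.79 ± 0.08). For Csf3r, the receptor of granulocyte colony-stimulating factor, the log2 fold change was 0.45 ± 0.12 (edgeR adjusted p = 0.00191), and the call was lost with DESeq2, without the block and with Irf8-positive cells kept. The survival gene Bcl2 was lower (11.1, 8.34 and 15.2 CPM against 62.2, 59.0 and 57.2 CPM, -2.27 ± 0.14).

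The 10 genes with the largest rise among those with enough UMIs included Ak4, Prg3, Gfi1, Fkbp11, Glrp1, Chst13, Mgam, Ndrg2 and Ppic. Ak4, a mitochondrial adenylate kinase, was at 17.8, 12.5 and 13.6 CPM in members and 1.21, 2.39 and 2.09 CPM elsewhere (2.75 ± 0.26; edgeR adjusted p = 1.04e-15). Levels of Ppic, a cyclophilin of the secretory pathway, were 71.4, 77.1 and 82.7 CPM and 20.9, 17.2 and 19.6 CPM (2.03 ± 0.09), and those of Ndrg2 were 20.1, 24.0 and 21.6 CPM and 3.84, 5.85 and 5.46 CPM (2.04 ± 0.18). Chst13, a chondroitin sulfotransferase, was 54.6, 12.5 and 4.85 CPM in members and 11.6, 3.52 and 1.03 CPM in the others, so that members were higher inside each library (2.099 ± 0.22) although the libraries differed widely. The digestive enzyme gene Mgam and the glutamine repeat protein gene Glrp1 differed by 2.09 ± 0.22 and 2.12 ± 0.31. Without library c, Glrp1 was at 1.24 and lost its call (edgeR adjusted p = 0.0852).

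Members had fewer transcripts of mitosis. Of 30 genes of G2 and mitosis 26 were lower and 1 was higher, with a median log2 fold change of -0.62, and the list summed to 2010.3, 2100.4 and 2148 CPM in members against 2688, 2688 and 2925 CPM. The proliferation marker Mki67 was at 54.6, 50.6 and 47.5 CPM in members and 93.6, 90.0 and 96.5 CPM in the other cells (-0.94 ± 0.08; edgeR adjusted p = 1.52e-16). Topoisomerase Top2a differed by -0.94 ± 0.06, the spindle protein Nusap1 by -1.86 ± 0.10 and the exception, Cks2, a partner of cyclin-dependent kinases, by 0.29 ± 0.03, which turned to -0.032 when Irf8-positive cells were kept. In S phase genes 2 of 30 were higher and 12 lower, and among G1 regulators 3 of 17 were higher and 9 lower, with the inhibitor Cdkn2d at -1.75 ± 0.10.

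The last criterion parted the members from cells with Irf8 transcripts. After the Elane, calprotectin and Ltf criteria 2709 cells were left, of which 1819 had an Irf8 UMI: 228 had 1, 247 had 2 and 1344 had 3 or more. At the mean Irf8 level of those cells (692 CPM, a mean over cells chosen for holding an Irf8 UMI), a member of median depth would hold 4.36 UMIs. Over the depths of all members, counting alone would leave 3.63% of cells with that level at 0. Cells with less Irf8 would be left at 0 more often, so this value is not the share of members that express Irf8. The comparison of members with these 1819 cells was chosen after the data had been seen, and it shares the members' sums with the other comparisons. Of 8388 genes tested, 13.7% were higher in members and 14.6% lower. Members were chosen to hold no Irf8 UMI and the other set at least 1, so genes that vary with Irf8 differ by that choice.

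Besides Irf8, these cells differed from members in factors of neutrophil and monocyte formation. Cebpe was at 341, 289 and 331 CPM in members and 37.9, 38.0 and 44.2 CPM in Irf8-positive cells, a log2 fold change of 2.98 ± 0.07 (edgeR adjusted p = 1.18e-23). Gfi1 was at 29.0, 25.02 and 28.4 CPM against 4.57, 2.76 and 3.34 CPM (3.04 ± 0.21; edgeR adjusted p = 3.42e-12), and Myb was higher by 1.26 ± 0.06. Klf4, a factor of monocyte formation, was detected in library b alone of the members, at 1.56 CPM, and stood at 32.9, 35.0 and 32.7 CPM in the Irf8-positive cells. The groups did not overlap in any of these genes. Irf5 was at 1.11, 2.08 and 2.91 CPM in members and 30.2, 27.6 and 29.8 CPM in Irf8-positive cells (-3.58 ± 0.25). With 3 Klf4 and 14 Irf5 UMIs in members, both genes passed the filter on low counts only through the Irf8-positive cells. Among 19 myeloid factors 6 were higher and 4 lower.

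The 19 monocyte and dendritic cell markers summed to 549, 697 and 657 CPM in members and 2977, 3393 and 3201 CPM in Irf8-positive cells. The receptor of macrophage colony-stimulating factor, Csf1r, differed by -2.36 ± 0.17 and the chemokine receptor Ccr2 by -3.43 ± 0.15. Ms4a6c, a membrane protein of monocytes, was at 68.0, 68.3 and 71.4 CPM in members and 594, 629.7 and 669 CPM in Irf8-positive cells (-3.18 ± 0.05). The coagulation factor XIII subunit F13a1 and the accessory antigen Ly86 differed by -2.63 ± 0.06 and -3.61 ± 0.15, and the lysosomal protease cathepsin S (Ctss) by -4.16 ± 0.15. The 10 genes with the largest fall were Klf4, Qpct, Aif1, Lgals3, Trem2, Ifi204, Pld4, Ptpro, Arl5c and Ahnak, several of them known from macrophages. Galectin 3 (Lgals3) was at 1.11, 12.0 and 4.2001 CPM against 151, 165 and 192 CPM (-4.79 ± 0.17), and Aif1, an actin-binding protein of macrophages, at 1.11, 2.61 and 1.29 CPM against 49.3, 52.9 and 52.1 CPM (-4.89 ± 0.24). Genes as low in members as Aif1 passed the filter on low counts only through the Irf8-positive cells and could only be called lower.

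Primary granule genes split between both sets. Of 18 tested, 8 were higher in members and 6 lower. Cd63 was at 973, 1049.7 and 1158 CPM in members and 116, 133 and 137 CPM in Irf8-positive cells (3.07 ± 0.04; edgeR adjusted p = 5.77e-29). Prss57 (1.84 ± 0.04), Ms4a3 (1.47 ± 0.03) and Srgn (1.24 ± 0.02) were also higher, and so by smaller margins were Ctsg (0.85 ± 0.02), Prtn3 (0.52 ± 0.02) and Mpo (0.48 ± 0.02). Lyz2 at 1255, 1503 and 1539 CPM and Ctsc at 188, 220.0 and 242 CPM stood above the members' levels (-2.77 ± 0.04 and -2.19 ± 0.08). The granule protease inhibitor Serpinb1a was higher in members, 669, 670.2 and 804 CPM against 307, 309 and 356 CPM (1.17 ± 0.03).

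Several secondary and tertiary granule genes were already higher in members than in Irf8-positive cells, whereas others were not. In that list 5 of 13 tested were higher and 5 lower. Wfdc21 was at 400.3, 396 and 339.9 CPM against 13.2, 25.4 and 27.6 CPM (3.92 ± 0.09; edgeR adjusted p = 9.95e-23) and Pglyrp1 at 463, 462 and 423 CPM against 45.7, 40.0 and 44.6 CPM (3.37 ± 0.06). Fcnb, the ficolin of granulocytes, differed by 0.92 ± 0.12. Camp at 0.05 ± 0.09, Ngp at 0.10 ± 0.10 and Lcn2 at -0.04 ± 0.13 did not pass the test. Outside the lists, the adhesion molecule Vcam1 was at 35.7, 32.8 and 29.4 CPM in members against 0.457, 2.48 and 2.004 CPM (4.06 ± 0.25) and the progenitor antigen Prom1 differed by 3.40 ± 0.22. At its level in Irf8-positive cells Vcam1 passed the filter on low counts only through the members and could only be called higher. The other genes of the 10 with the largest rise were Prg2 and Prg3, whose UMIs came from few cells, the mast cell carboxypeptidase Cpa3 (3.24 ± 0.18), the nuclear envelope protein Syne1 (3.20 ± 0.29) and the acyltransferase Mogat2 (3.17 ± 0.25). The 290 Cpa3 UMIs of members came from 73 cells (8.20%), and 9 cells held 48.3% of them. Secretory pathway genes were higher in 27 of 46 and lower in 3, and genes of G2 and mitosis were lower in 18 of 30 and higher in 1.

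**Figure D2:**
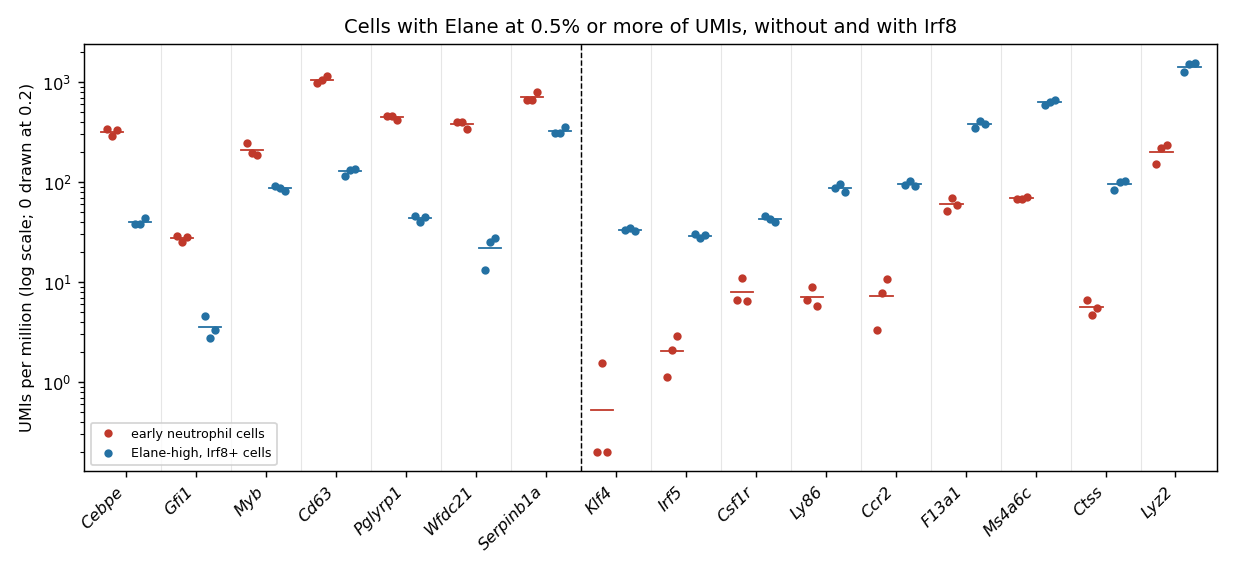
Levels of 16 genes in members and in Elane-high cells with an Irf8 UMI, in CPM on a log axis with 0 drawn at 0.2; dots are libraries, and a dashed line parts 7 genes higher in members from 9 lower. The sets do not overlap in any gene, with members above for Cebpe, Gfi1 and Cd63 and below for Klf4, Csf1r and Lyz2.

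A second neighbouring set, 2040 cells with at least 1% of UMIs from S100a8 and S100a9, no more than 4 Ltf UMIs and no Irf8 UMI, was taken whatever the Elane level. These calprotectin-high cells held 83926, 93405 and 86577 CPM of S100a8, and S100a8 and S100a9 were not tested. Members were chosen for less than 1% of these UMIs, so any gene that varies with S100a8 and S100a9 differs by that choice. Of 7689 genes tested, 24.4% were higher in members and 26.1% lower under TMM scaling. Scaling mattered in this comparison. With library totals the median log2 fold change of all genes was 0.42 instead of 0.02, and 4004 genes were higher and 895 lower instead of 1876 and 2009. Higher genes thus made up 48.3% of calls under TMM and 81.7% under library totals. Directions below hold under both scalings unless stated.

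Later granule genes were low in members and abundant in calprotectin-high cells. Of 15 secondary and tertiary granule genes 14 were lower in members and none higher under either scaling, a direction that the choice of both sets favoured. Camp reached 24181, 26729 and 24808 CPM in calprotectin-high cells against 45.7, 74.5 and 76.9 CPM in members (-8.90 ± 0.07; edgeR adjusted p = 4.77e-120). The neutrophilic granule protein gene Ngp (-8.23 ± 0.07), the chitinase-like Chil3 (-7.04 ± 0.08) and lipocalin 2, Lcn2 (-5.07 ± 0.08), were lower too. Smaller steps separated Fcnb, at 108, 83.4 and 74.95 CPM in members and 2404, 2389 and 2536 CPM in calprotectin-high cells (-5.28 ± 0.07), Wfdc21 (-3.22 ± 0.05) and Pglyrp1 (-2.67 ± 0.05). All 6 NADPH oxidase genes were lower in members under both scalings, with Cybb at -3.85 ± 0.11. The genes with the largest fall included, besides Camp, Ngp, Chil3 and Chil1, the surface proteins Itgb2l (1 UMI in members and 531 in calprotectin-high cells) and Cd177 (2 and 800 UMIs), the decoy receptor Il1r2 (2 and 318 UMIs) and the acute phase protein Orm1 (3 and 457 UMIs). Olfml2b and Gm19705, also among them, had no UMI in members and 131 and 108 UMIs in calprotectin-high cells. Genes with so few UMIs in members could only be called lower.

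Primary granule genes were less uniform than the later ones, and their balance of higher and lower genes depended on scaling. Ctsg was higher in members than in calprotectin-high cells, 7151, 7329.9 and 7992 CPM against 3241, 3515 and 4292 CPM (0.63 ± 0.04; edgeR adjusted p = 1.34e-26). Mpo, which helped to define a set in the same fit and was not tested, was at 6028, 6457 and 7672 CPM in calprotectin-high cells, and Elane at 22676, 21936 and 24859.7 CPM. For Prtn3 the value depended on scaling, with -0.41 ± 0.04 under TMM and no call under library totals (-0.00), and Ms4a3 changed direction from -0.28 ± 0.04 to 0.12. Over the list, 3 of 17 genes were higher and 12 lower under TMM, 7 and 5 under library totals. Cd63 (-1.09 ± 0.05) and Lyz2 (-4.53 ± 0.06) were lower in members and Ctsc (1.302 ± 0.15) was higher.

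**Figure D3:**
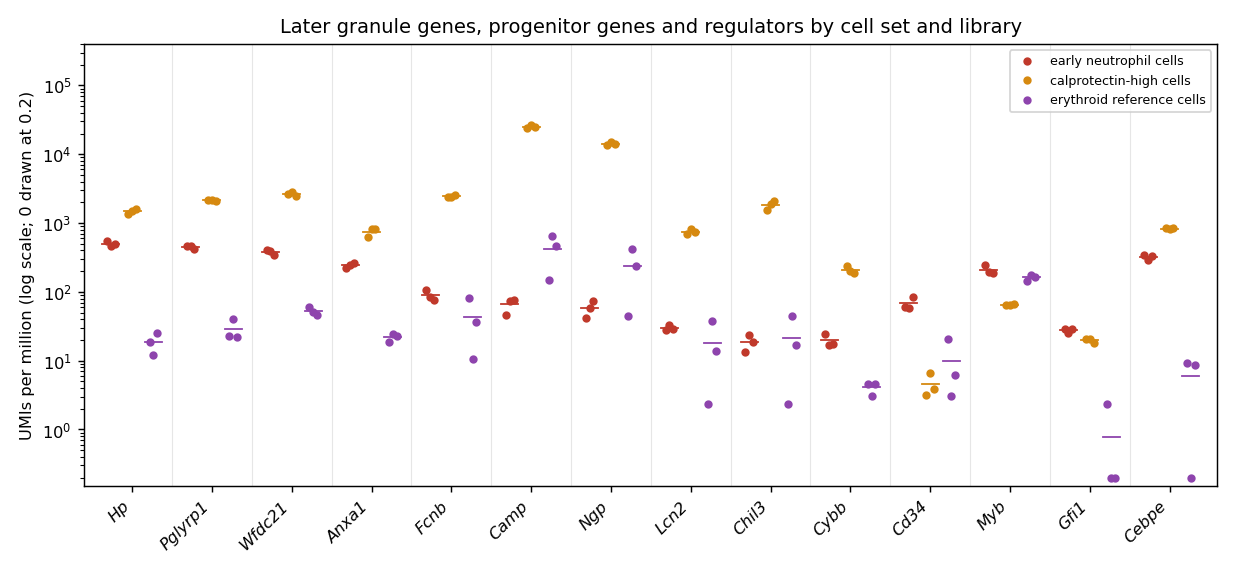
Levels of 14 genes in members, calprotectin-high cells and erythroid reference cells, in CPM on a log axis; dots are libraries and lines means. Camp and Ngp in members are at or below the mean of the erythroid reference, Hp, Pglyrp1 and Wfdc21 lie between the reference and the calprotectin-high cells, and Cd34 and Myb are higher in members.

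Transcription factors differed in both directions. Cebpe was at 341, 289 and 331 CPM in members and 834, 812 and 853 CPM in calprotectin-high cells (-1.79 ± 0.06; edgeR adjusted p = 1.58e-54), and Myb was higher in members by 1.21 ± 0.08. Gfi1, at 29.0, 25.02 and 28.4 CPM and 20.9, 20.5 and 17.97 CPM, differed by 0.10 ± 0.16 under TMM (edgeR adjusted p = 0.613) and by 0.51 under library totals (edgeR adjusted p = 0.00425), where it passed. With Irf8-positive cells kept among the members it was at -1.27. Of 12 stem and multipotent genes 9 were higher in members and 1 lower (10 and 0 under library totals). Cd34 was at 60.2, 58.9 and 85.0 CPM against 3.17, 6.63 and 3.91 CPM (3.54 ± 0.19). The homeobox genes Hoxa7 (3.85 ± 0.34) and Hoxa9 (3.29 ± 0.35) and the fatty acid binding protein Fabp5 (3.31 ± 0.17) were also among the 10 genes with the largest rise, with Prg2, Prg3, Serpinf1 (4.76 ± 0.37), the orphan receptor Gpr171 (3.14 ± 0.34), the POU factor Pou2f2 (2.98 ± 0.31) and Ms4a6c (2.94 ± 0.17). Monocyte and dendritic markers were higher in 9 of 11 genes and lower in 2 (9 and 1 under library totals).

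Synthesis and export genes were higher in members than in calprotectin-high cells, and genes of mitosis lower. Of 23 ribosome biogenesis genes 22 were higher (23 under library totals) and none lower, and nucleophosmin (Npm1) stood at 1412, 1522 and 1713 CPM against 442, 444 and 540.0 CPM (1.295 ± 0.05). Secretory pathway genes were higher in 29 of 46 and lower in 8 (41 and 1 under library totals), with Calr at 1.12 ± 0.05. The secretory list summed to 18839, 19239 and 19384 CPM in members, 16478, 16663 and 16517 CPM in Irf8-positive cells and 11774, 11860.1 and 12460.5 CPM in calprotectin-high cells, with no overlap between the 3 sets. Of 30 genes of G2 and mitosis 29 were lower in members (20 under library totals) and none higher, Mki67 among them (-0.84 ± 0.11). S phase genes depended on scaling, with 1 of 29 higher and 19 lower under TMM and 9 higher and 4 lower under library totals.

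**Figure D4:**
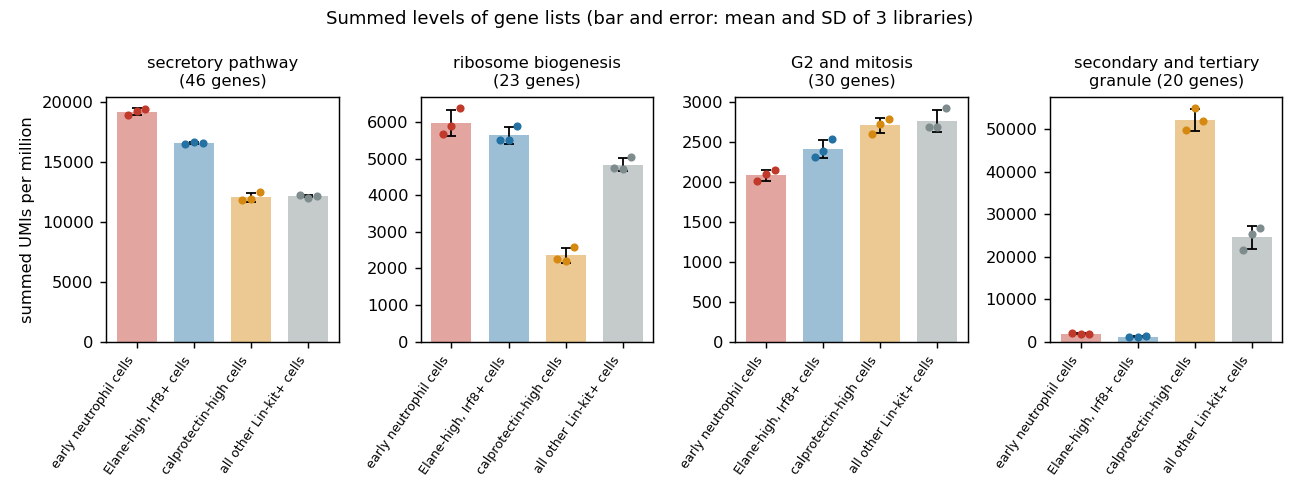
Summed levels of 4 gene lists in CPM, for members, Irf8-positive cells, calprotectin-high cells and all other Lin-kit+ cells; bars are means of 3 libraries, error bars SD and dots libraries. Members have the highest sums for the secretory pathway and ribosome biogenesis and the lowest for G2 and mitosis, and calprotectin-high cells have the highest for secondary and tertiary granules.

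A further set was defined by Mpo without Elane (Mpo at 0.25% of UMIs or more, Elane under 0.1%, with the other limits as for members) and held 221 cells. Of these, 125 (56.6%) had at least 5 UMIs of the basophil protease genes Prss34 and Mcpt8, so they are named by the rule and not as an earlier neutrophil stage. Of 7689 genes, 8.67% were higher in members and 9.88% lower. Prss34 was at 2.23, 16.2 and 16.8 CPM in members against 10023, 14699 and 22742 CPM (-10.34 ± 0.11), and the IgE receptor chains Fcer1a (-8.73 ± 0.17) and Ms4a2 (-6.92 ± 0.17) were lower with it. Ctsg and Prtn3 were higher in members by 1.03 ± 0.05 and 2.61 ± 0.06. The 10 genes with the largest fitted rise had no UMI in the Mpo-high cells, so no fold is given for them.

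At the Elane threshold itself the change was gradual. The 28 members with Elane between 0.5% and 0.6% of UMIs had 0.632% of UMIs from Mpo, 0.383% from Prtn3, 0.416% from Ctsg and 0.134% from Ms4a3. In the 22 cells just outside, with Elane between 0.4% and 0.5%, the values were 0.571%, 0.321%, 0.371% and 0.0884%.

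Members varied among themselves along the later granule genes. In each library they were ranked by the share of UMIs from Fcnb, Chil3, Lcn2, Camp and Ngp and cut into 3 equal parts, whose lowest and highest are compared without a test. The lowest part held 34, 113 and 150 cells and the highest 34, 112 and 150. In the lowest part 31, 98 and 110 cells held no UMI of the ranking genes, so the ranking did not order them. Mean levels of Camp, Ngp and Chil3 were lower in members than in the erythroid reference cells, and those of Fcnb and Lcn2 were higher. How far stray transcripts shaped the ranking was not tested. Median depth was 7048, 5680 and 6628.5 UMIs in the lowest and 7217.5, 5158 and 6102 in the highest. Of 3331 genes with enough UMIs, 6.66% had all 3 libraries of the highest part above those of the lowest and 7.81% had them below. Of 18 primary granule genes 9 were above in this sense and none below. Elane went from 15241, 16069 and 16907 CPM in the lowest part to 22335, 22096 and 22257 CPM in the highest, and Prtn3 from 6404, 6726 and 6612 to 9096, 8244 and 8142 CPM. The increase was smaller in Ctsg, from 6948, 7456 and 7646 to 7703, 7693 and 8758 CPM, and in Ms4a3, from 2369, 2495 and 2565 to 3052, 2675 and 3154 CPM. S100a8 rose with the ranking, from 1028, 1099 and 996 to 3930, 3190 and 2913 CPM, and so did Wfdc21, from 127, 295 and 224 to 759, 613 and 558 CPM. The rule had bounded Elane from below and S100a8 from above, which limits the range of both among members. Gfi1 was at 22.4, 22.2 and 23.7 CPM in the lowest part and 30.5, 32.8 and 35.8 CPM in the highest, and Cebpe was at 350, 238 and 266 CPM against 431, 346 and 400 CPM. Both were higher in the highest part of each library, although the lowest value of the highest part of Cebpe lay below the highest value of its lowest part.

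The eosinophil genes Prg2 and Prg3, whose UMIs came mostly from a few cells, were the furthest below in the highest part, with Prg2 at 767, 163 and 403 CPM in the lowest and 0, 100.2 and 32.9 CPM in the highest. Fabp5 and Cd34 followed. Cd34 went from 93.1, 72.8 and 104 CPM to 26.7, 29.4 and 63.7 CPM, and Fabp5 from 96.9, 79.2 and 97.7 to 15.3, 32.8 and 60.7 CPM. The annexin partner S100a10 went from 104, 91.8 and 99.8 to 15.3, 62.2 and 56.7 CPM and the interferon-induced Ifitm3 from 231, 131 and 173 to 68.7, 111 and 130 CPM. Library a, with 34 cells in each part, showed the widest steps in these genes. Of 20 ribosome biogenesis genes none was above and 4 were below, and of 42 secretory pathway genes 4 were above and 2 below. Across the 890 members, which share libraries and depth, the shares of Elane and Prtn3 had a Spearman rho of 0.625. For Elane and S100a8, both bounded by the rule, it was 0.669, and for Ctsg and Mpo 0.55, against 0.317 for Mpo and Prtn3. Cd34 and Prtn3 had a rho of -0.45.

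**Figure D5:**
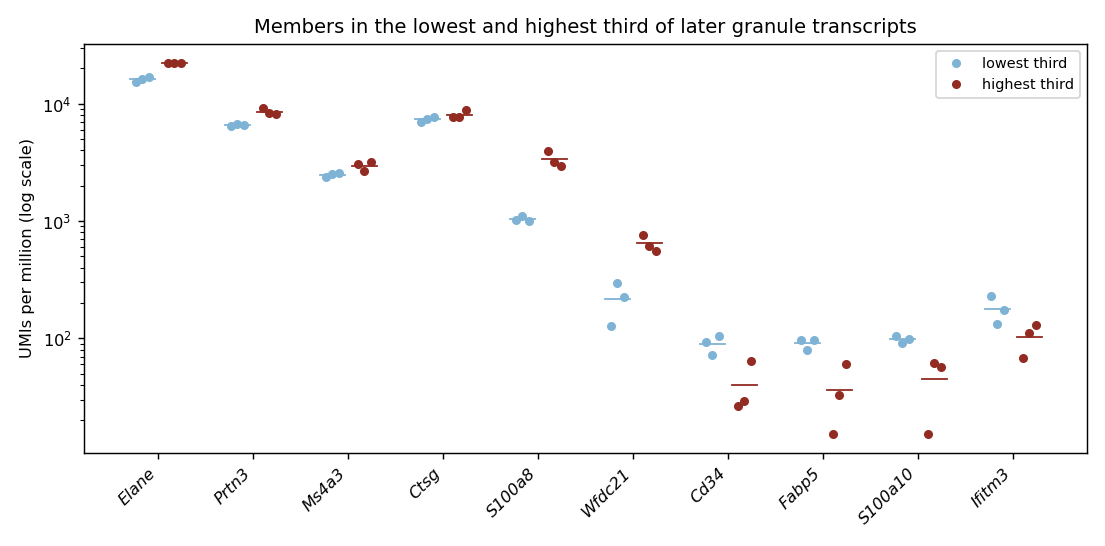
Levels of 10 genes in members with the lowest and the highest share of later granule transcripts, in CPM on a log axis; dots are the 3 libraries. Elane, Prtn3, Ms4a3, Ctsg, S100a8 and Wfdc21 are higher and Cd34, Fabp5, S100a10 and Ifitm3 lower in the highest part, without overlap between libraries.

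A few members carried genes of other granulocytes. Prg2, the major basic protein of eosinophils, had 1039 UMIs in members, but 30 members (3.37%) held all of them and 9 cells held 96.0%. The 12 members with at least 5 Prg2 UMIs were spread over the libraries as 1, 4 and 7 cells, and none was called a doublet. In these 12 cells Prg2 was at 12552 CPM, its paralog Prg3 at 2875 CPM and the eosinophil peroxidase gene Epx at 322 CPM, against 4.46, 8.58 and 0 CPM in the other members. Their Elane was at 11263 CPM, Mpo at 8351 CPM and Cebpe at 1140 CPM. The higher Prg3 in members than in all other cells (log2 fold change of 2.37 ± 0.12) came largely from these cells, which held 232 of the 282 Prg3 UMIs of members. In all, 15 members (1.69%) had at least 5 UMIs of Prss34 and Mcpt8, the basophil proteases.

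When the 5 rule genes were left out of the clustering, members still stood together. Of 18 Leiden clusters from the other 2000 variable genes, 1 cluster of 641 cells held 57.2% of members, and 79.4% of its cells were members. Another of 825 cells, 565 of them calprotectin-high, held 27.9%, and 2 more held 6.74% and 6.18%. Among the 15 nearest neighbours of a member, 68.6%, 69.0% and 65.6% were members in the 3 libraries, whereas members made up 7.69% of all cells. Around cells that were not members the share was 2.72%, 2.54% and 2.55%. The neighbours of members that were not members themselves were mostly Irf8-positive (15.6% of all neighbours) or calprotectin-high (12.1%), and 0.502% were Mpo-high cells with low Elane. Since Elane, Prtn3 and the later granule genes vary together, leaving out the rule genes does not make the clusters independent of the rule.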

How the data were processed

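Bone marrow cells were measured in 5 libraries, 3 of Lin-kit+ and 2 of reporter-positive cells. The authors combined sequencing runs, and deposited 1 table of raw UMI counts that covers 15287 genes. The submitters' processing notes name Cell Ranger 1.3 and 2.1, Seurat 2.3.4 and mm10, without their roles. No population is given for the barcode suffixes of this table. The suffixes with 793 and 519 cells were taken as reporter-positive from the cell numbers in the paper, not from GEO's labels, and the other 3 as Lin-kit+, called a, b and c by rising cell number. The members, gene lists and comparisons were chosen with earlier results of these data known, and the comparison with Irf8-positive cells was added after seeing the data.

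UMI counts were summed per library and cell set and tested with edgeR 4.0.16 (R 4.3.3; TMM, its filter on low counts, quasi-likelihood test, library as a block, since members and other cells of a library are paired by construction). Calls were made at a Benjamini-Hochberg adjusted p under 0.05. The comparisons share the members' sums and are given side by side. DESeq2 1.42.0, library totals, no filter on low counts, no block, other limits of the rule and each library left out were alternatives. Doublets (Scrublet in scanpy 1.11.5) were kept in the main result. Clusters came from 2000 variable genes, 20 components and 15 neighbours (leidenalg 0.10.2, numpy 2.4.6, Python 3.11.15), and figures from matplotlib 3.10.9. Named genes were the rule genes and markers, the 10 in each direction with the largest fitted change among called genes with at least 100 UMIs and the same sign in all 3 libraries, and list members with the highest level or largest change. A gene among those 10 in a comparison is not reported here. Tested on simulated data with 200 changed genes over 5 simulations, the comparison with all other cells (10106 genes tested on average in the simulations) recovered 94.4% of 2-fold and 100% of 4-fold changes, and 3.86% of calls were false. In the other comparisons 87.6% to 99.8% of 2-fold changes were recovered, and 3.29% to 4.4% of calls were false. The simulated counts had a single dispersion and no difference between libraries, and their sets were not chosen by expression. These rates need not hold for the real data.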

Additional observations from a re-analysis of the deposited data

How the results depend on the processing

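Of the values of single genes under the alternatives, 2010 kept their direction and their side of the threshold, 15 lost the call, 5 gained one and 7 changed direction. When cells with Irf8 UMIs were kept among the members, 6 of these reversed: against all other cells Cd63 was at -0.84, Ctsc at 1.33, Cebpe at -1.44, Cks2 at -0.032 and Kit at -0.23 (log2), and Gfi1 against calprotectin-high cells at -1.27. The seventh was Ms4a3 against calprotectin-high cells, at 0.12 with library totals. The share of members per library was 8.32% with Elane from 0.25% of UMIs, 6.74% from 1%, 6.34% with calprotectin under 0.5%, 9.26% under 2%, 23.6% with Irf8-positive cells kept and 12.4% after thinning to 2000 UMIs. With the rule genes kept in the clustering, 76.7% of members' neighbours were members (67.7% without) and 1 cluster held 81.2% of members. At resolution 0.5 it held 84.8%.

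Counts of genes called depended on the tool, the scaling and the block. DESeq2 called 930 higher and 981 lower against all other cells, 438 and 535 against Irf8-positive cells, 950 and 1334 against calprotectin-high cells and 441 and 497 against Mpo-high cells. Library totals gave 4004 higher and 895 lower against calprotectin-high cells, and keeping Irf8-positive cells gave 2809 higher against all others. Without the library block, which pairs sets of the same library, 881 were higher and 1235 lower against all other cells, 557 and 671 against Irf8-positive cells, 1232 higher against calprotectin-high cells and 430 higher against Mpo-high cells. Leaving out each library in turn gave 397 to 671 higher and 388 to 628 lower against Mpo-high cells, with the lowest counts without library c. The cause of these changes was not tested. With 102 members, library a had the fewest UMIs in all, and genes under a few UMIs per library have wide errors. A cell that expresses Irf8 at low level can hold no Irf8 UMI and be counted as a member.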

Other observations

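Among the reporter-positive cells, which were sorted for Fgd5 expression and enter no comparison, 1 cell of the larger library met the rule (0.126% of its cells), and 0 cells of the smaller did, which allows a share of up to 0.578% by the bound of 3 cells (exact 95% upper limit 0.708%). The 1 cell held 222 Elane and 186 Mpo UMIs among 21331 UMIs. It had no UMI of the stem cell genes Procr, Ly6a and Slamf1 and 1 UMI of Cd48.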
